A study of Mus musculus with 41 samples.

Results

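The 9 genes described belong to the Polycomb repressive complex 1 (PRC1) and were followed in messenger RNA of mouse malignant mesothelioma (MM). They are the catalytic genes Ring1 and Rnf2, the PCGF genes Bmi1, Pcgf2, and Pcgf1, the PCGF1 partner Kdm2b, and the chromobox genes Cbx2, Cbx7, and Cbx8. They were chosen by name, with earlier results of these data known, and all 9 were found among the 27197 genes of the count table. RNA had been sequenced from 3 BNC lines (Bap1-/-;Nf2-/-;Cdkn2ab-/-: JB81, JB91, and JB97), 3 NC lines (Nf2-/-;Cdkn2ab-/-: JB84, JB87, and JB93), and 9 MM tumors. The comparison of BNC with NC lines asks what loss of Bap1 goes with, and the comparison of tumors with lines asks how the genes differ between tissue and culture. Tumors had been induced in mice 6 to 8 wk old, of mixed background, by injecting an adenovirus that expresses Cre from the CMV promoter, which is active in many cell types, into the thoracic cavity. Nf2 and Cdkn2ab were targeted in all groups, the lines were grown from pieces of tumor, and the labels list 5 BNC and 4 NC tumors without tying a genotype to a column of the count table. The tumors are therefore 1 group here, and T22 stands for a tumor column that gives the number 22 without a letter.

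PRC1 places ubiquitin on histone H2A, the mark that the deubiquitinase Bap1 removes. Every PRC1 holds Ring1 or Rnf2, the E3 ligases, bound to 1 PCGF protein, which sets the kind of complex. Canonical PRC1, with Bmi1 or Pcgf2, carries a chromobox protein that reads histone H3 lysine 27 trimethylation, the mark of Polycomb repressive complex 2 (PRC2), while the variant complex with Pcgf1 is brought to unmethylated CpG islands by Kdm2b. Polycomb proteins are best known for silencing developmental genes and the Cdkn2a locus, which was targeted in these mice.

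Libraries stood apart in ways that bear on every value below. The total count was 20231284 to 23936922 in BNC lines, 12377675 to 18999233 in NC lines, and 8158740 to 21851974 in tumors. Tumor B1 was the shallowest, with 24.7% of its counts on the single predicted gene Gm42418, and B13 had 7.18% on it, against at most 2.46% elsewhere. JB81 and JB91 were nearly the same, with a biological coefficient of variation of 0.0386 between them and 5 of 10511 genes more than 2-fold apart, and JB84 and JB93 were as close (0.0578 and 8 of 10545 genes). The other pairs of lines within a group had coefficients of 0.457 to 0.496, so each group of 3 lines held 2 distinct expression profiles and p-values measure only the spread between these samples. Whether the lines of a close pair came from 1 line or tumor sequenced again is not given in the sources used here. If they did, the 6 lines stand for 4, and the tests and SDs below overstate the number of independent lines. The column names open with a number whose meaning is not stated, 1 for all tumors and 2 others for the lines (JB81, JB84, and JB87 the first, JB91, JB97, and JB93 the second), so that whatever this number marks and tissue cannot be told apart. As a check of the labels, Bap1 was read at 40.3, 41.4, and 37.0 CPM in JB81, JB91, and JB97, and at 57.1, 56.8, and 60.3 CPM in JB84, JB87, and JB93. CPM here and below is the count relative to the library total, as counts per 1e+06, scaled by TMM over all 15 libraries. Bap1 was lower in every BNC line (log2 fold change -0.57 ± 0.13 SE). Its adjusted p was 0.039, where every p below comes from the quasi-likelihood test of edgeR and is adjusted by Benjamini-Hochberg over all genes. The whole-gene count of Bap1 includes exons outside the deleted part. Nf2 was at 82.4 to 119.3 CPM in the lines and 48.8 to 125 CPM in the tumors, Cdkn2a at up to 0.551 and 7.84 CPM, and Cdkn2b at up to 0.0501 and 0.137 CPM, in the same order.

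The labelled tissue was checked on 9 mesothelial markers. Msln (mesothelin) was read at 0.207 and 0.415 CPM in JB81 and JB91, at 224 CPM in JB97, and at 844 to 2018 CPM in the NC lines. JB81 and JB91 kept Wt1, at 123 CPM in both, as almost their whole mesothelial signal, and Calb2 (calretinin) was at 0 in all 6 lines. In the tumors Msln was between 43.4 and 1446 CPM.

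Between BNC and NC lines none of the 9 PRC1 genes passed the threshold, an adjusted p under 0.01 with more than 2-fold change. Of all 12376 genes tested 1.10% passed it. For the test 8 of the 9 genes had enough reads, and Cbx7 did not. With DESeq2, which called 2023 of all 20424 genes, there were also 0. Of the 8, 0 had an unadjusted p under 0.05 by edgeR, where 35.6% of all genes did. At an adjusted p under 0.05 without a fold, which 14.2% of all genes passed, again 0 of the 8 passed. In 2 of the 8, Bmi1 and Pcgf2, all BNC lines exceeded all NC lines. Of all genes 41.4% were without overlap between the groups, and in 21.5% the BNC lines were the higher. Between tumors and lines, 2 of the 9 passed, Cbx7 upward and Cbx2 downward, where 39.7% of all 15675 genes tested passed in either direction, 28.2% upward and 11.5% downward. Cbx7 entered this test only through the tumors, where it is high, since its reads in the lines did not pass the filter on low counts. The same 2 genes were the ones without overlap between tumors and lines, as were 25.3% of all genes (16.4% with tumors higher and 8.92% with tumors lower). At an adjusted p under 0.05 there were 4, with Pcgf1 higher and Cbx8 lower in tumors beside them, and 61.2% of all genes passed (39.0% higher and 22.2% lower). The median log2 fold change was -0.30 over the 9 genes and 0.38 over all genes in the tumor comparison, and 0.20 over the 8 genes and -0.002 over all genes in that of the lines.

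**Figure D1:**
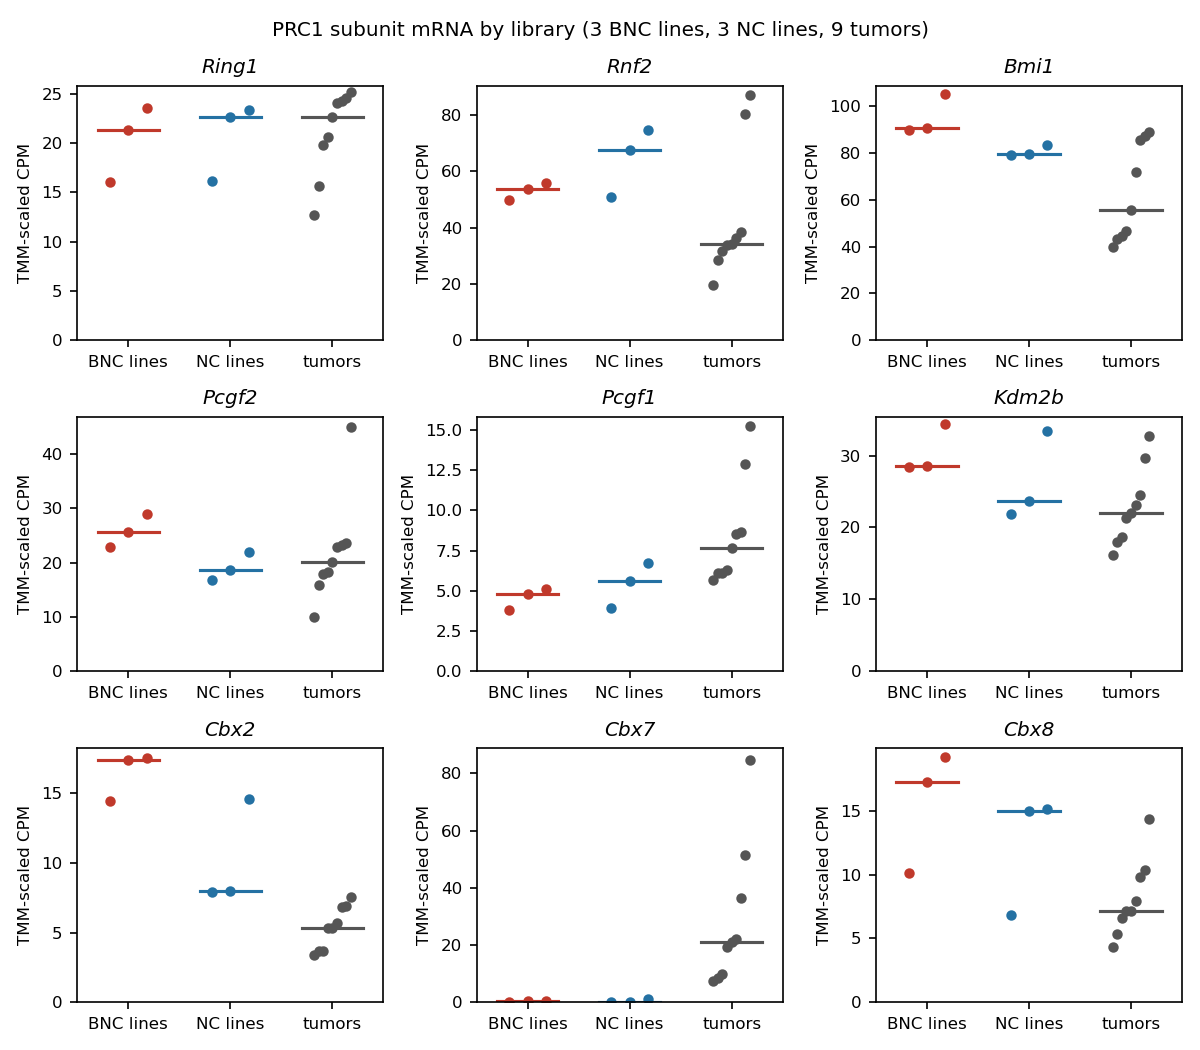
Expression of the 9 PRC1 genes (vertical axes, TMM-scaled CPM) in 3 BNC lines, 3 NC lines, and 9 tumors, with 1 point per library and a bar at the group median. Cbx7 lay below 1.1 CPM in all lines and between 7.61 and 84.6 CPM in the tumors, and Cbx2 was lower in each tumor than in each line.

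Ring1, an E3 ligase of PRC1, was read at 23.5, 21.4, and 16 CPM in JB81, JB91, and JB97 and at 23.3, 16.2, and 22.6 CPM in JB84, JB87, and JB93. Its lowest, median, and highest values in tumors were 12.8, 22.6, and 25.2 CPM. All groups of Ring1 overlapped. Its log2 fold change was -0.05 (± 0.24 SE, edgeR adjusted p = 0.90) in BNC against NC lines and 0.04 (± 0.19 SE, edgeR adjusted p = 0.88) in tumors against lines.

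Rnf2, which encodes Ring1b, the main H2A ubiquitin ligase of mouse embryonic stem cells, had 55.7, 49.9, and 53.7 CPM in the BNC lines and 74.5, 50.8, and 67.6 CPM in the NC lines, in the same order. JB87 lay within the range of the BNC lines. The log2 fold change was -0.30 (± 0.18 SE, edgeR adjusted p = 0.28). In the tumors Rnf2 ran from 19.7 CPM in B1 over a median of 34.1 CPM to 80.4 CPM in T22 and 86.8 CPM in B28. T22 and B28 were above every line, and the other 7 tumors, at no more than 38.5 CPM, were below every line. The comparison with lines did not pass either threshold (log2 fold change -0.43 ± 0.30 SE, edgeR adjusted p = 0.22). Rnf2 shares 158 exon bases with Trmt1l on the opposite strand, and as no strand setting is stated the reads of both cannot be told apart there.

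Per kilobase of exon, which allows levels of different genes to be set side by side, Ring1 made up 27.5% to 35.3% of the sum of Ring1 and Rnf2 in the 6 lines (median 29.4%). In tumors the share was 16.8% to 61.3% with a median of 46.7%. It was lowest in T22 and B28, at 16.8% and 18.6%, and above that of every line in the other 7 tumors, where it was at least 40.5%.

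Bmi1 (Pcgf4), the PCGF protein of canonical PRC1 known as a repressor of Cdkn2a, was the most abundant of the 9 per kilobase in every library group. It was read at 90.6, 89.5, and 105 CPM in JB81, JB91, and JB97 (BNC) and at 83.3, 79.0, and 79.5 CPM in JB84, JB87, and JB93 (NC). All BNC lines exceeded all NC lines, by a log2 fold change of 0.22 (± 0.12 SE, edgeR adjusted p = 0.25). Tumors had between 39.9 and 88.9 CPM (median 55.6), and overlapped the lines (log2 fold change -0.49 ± 0.21 SE, edgeR adjusted p = 0.056).

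Pcgf2 (Mel18), the paralog that can take the place of Bmi1, showed 22.9, 25.6, and 29 CPM in the BNC lines and 16.9, 18.8, and 22 CPM in the NC lines. The groups did not overlap, with JB81 at 22.9 CPM next to JB93 at 22 CPM, and the log2 fold change was 0.41 (± 0.17 SE, edgeR adjusted p = 0.15). In tumors Pcgf2 was between 9.96 CPM in B19 and 45.1 CPM in B28, with a median of 20.1 CPM, and the log2 fold change against lines was -0.02 (± 0.26 SE, edgeR adjusted p = 0.94). Bmi1 made up 75.6% to 81.4% of the sum of Bmi1 and Pcgf2 per kilobase in the lines (median 77.1%), and 63.3% to 88.6% in the tumors (median 69.3%). The range in tumors enclosed that in lines.

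Pcgf1, which founds the variant complex with Kdm2b and BCOR proteins, was a low-abundance gene with 3.82 to 5.11 CPM in BNC lines and 3.94 to 6.70 CPM in NC lines (log2 fold change -0.27 ± 0.30 SE, edgeR adjusted p = 0.54). The values in tumors were 6.28 CPM in B1, 8.53 in B2, 7.66 in B13, 6.11 in B14, 5.70 in B19, 12.9 in T22, 8.67 in B27, 15.2 in B28, and 6.08 in B45. All 6 lines were at or below 6.70 CPM, T22 and B28 were again highest, and the ranges overlapped in B1, B14, B19, and B45. Pcgf1 was higher in tumors by 0.79 on the log2 scale (± 0.28 SE, edgeR adjusted p = 0.026), short of 2-fold. With the close pairs of lines summed, the adjusted p was 0.088. Among the 6 PCGF genes per kilobase, Pcgf1 held 4.88% to 8.6% in lines and 9.44% to 18.5% in tumors, without overlap.

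Kdm2b, the CXXC-domain histone demethylase that tethers the Pcgf1 complex, had 28.5, 28.4, and 34.4 CPM in the BNC lines and 23.7, 33.3, and 21.8 CPM in the NC lines. JB87 again lay among the BNC lines, and the log2 fold change was 0.19 (± 0.21 SE, edgeR adjusted p = 0.52). Tumors ran from 16.2 to 32.7 CPM with a median of 22 CPM, overlapping the lines (log2 fold change -0.30 ± 0.18 SE, edgeR adjusted p = 0.16). Of its exon bases 627 are shared with Rnf34 and 199 with A930024E05Rik on the opposite strand, where reads cannot be told apart either.

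Both genes past the threshold in tumors were chromobox genes. Cbx7, the chromobox protein of canonical PRC1 that predominates in embryonic stem cells, was low in culture. It had 10, 12, and 4 reads in JB81, JB91, and JB97 (0.413, 0.498, and 0.200 CPM) and 0, 14, and 2 reads in JB84, JB87, and JB93 (0, 1.08, and 0.0905 CPM). A count of 0 in JB84 allows up to 0.189 CPM. In the tumors Cbx7 was read at 22.3 CPM in B1, 51.5 in B2, 19.5 in B13, 10.0 in B14, 36.4 in B19, 7.61 in T22, 8.63 in B27, 20.9 in B28, and 84.6 in B45. The lowest tumor, T22, was above the highest line, JB87. The means were 29 CPM ± 25.2 (SD, n = 9) in tumors and 0.380 CPM ± 0.391 (SD, n = 6) in lines, the difference being 6.28 on the log2 scale (± 0.88 SE, edgeR adjusted p = 4.2e-05). As Cbx7 passed the filter only through the tumors, the test is no more than a description of that difference, and its size rests on 0 to 14 reads in the lines. With each single library left out the log2 fold change was 5.88 (without B45) to 7.59 (without JB87).

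Cbx2, a chromobox protein that compacts chromatin and is known for its part in sex determination and axial patterning, moved the other way. It was read at 17.4, 17.5, and 14.4 CPM in JB81, JB91, and JB97 and at 7.93, 14.6, and 7.97 CPM in JB84, JB87, and JB93. JB87 was above JB97, so the line groups overlapped, and the log2 fold change of 0.68 did not pass (± 0.31 SE, edgeR adjusted p = 0.17). Without JB87 it was 1.05 (± 0.17 SE, edgeR adjusted p = 0.0082), past the threshold, but in that fit 19.7% of all genes passed, and the NC group was the close pair JB84 and JB93 alone, whose spread is far below that between distinct lines. Within the columns that share the opening number of JB81, which hold 1 BNC and 2 NC lines, the BNC line was 0.64 higher on the log2(CPM + 1) scale, and within those that share the number of JB91, with 2 BNC lines and 1 NC line, the difference was 0.92. Rnf2, Bmi1, and Pcgf2 also had 1 direction within both sets of columns, Kdm2b was at 0.02 and 0.50, and Ring1 (0.26 and -0.28), Pcgf1 (0.02 and -0.51), and Cbx8 (0.70 and -0.10) changed sign between them.

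In the tumors Cbx2 had 3.71 CPM in B1, 3.68 in B2, 5.33 in B13, 5.31 in B14, 3.41 in B19, 5.72 in T22, 7.58 in B27, 6.93 in B28, and 6.81 in B45. Every tumor was below every line, though B27 at 7.58 CPM lay next to JB84 at 7.93 CPM. The mean was 5.39 CPM ± 1.54 (SD, n = 9) in tumors and 13.3 CPM ± 4.35 (SD, n = 6) in lines, and Cbx2 fell by 1.26 on the log2 scale (± 0.25 SE, edgeR adjusted p = 0.00061). Without the tumors high in muscle or lung markers, B1, B2, B13, B19, and B45, it did not pass (log2 fold change -1.01, edgeR adjusted p = 0.012).

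Cbx8, another chromobox protein of canonical PRC1, had 17.3, 19.2, and 10.2 CPM in the BNC lines and 15, 6.87, and 15.1 CPM in the NC lines. The groups overlapped (log2 fold change 0.32 ± 0.41 SE, edgeR adjusted p = 0.59), and the close pairs JB81 and JB91, and JB84 and JB93, each stood above the third line of their group. Tumors ran from 4.33 CPM in B28 to 14.4 CPM in B27, with a median of 7.15 CPM. They overlapped the lines. Cbx8 was lower in tumors by a log2 fold change of -0.77 (± 0.29 SE, edgeR adjusted p = 0.031), short of 2-fold, and with the close pairs of lines summed the adjusted p was 0.13.

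**Figure D2:**
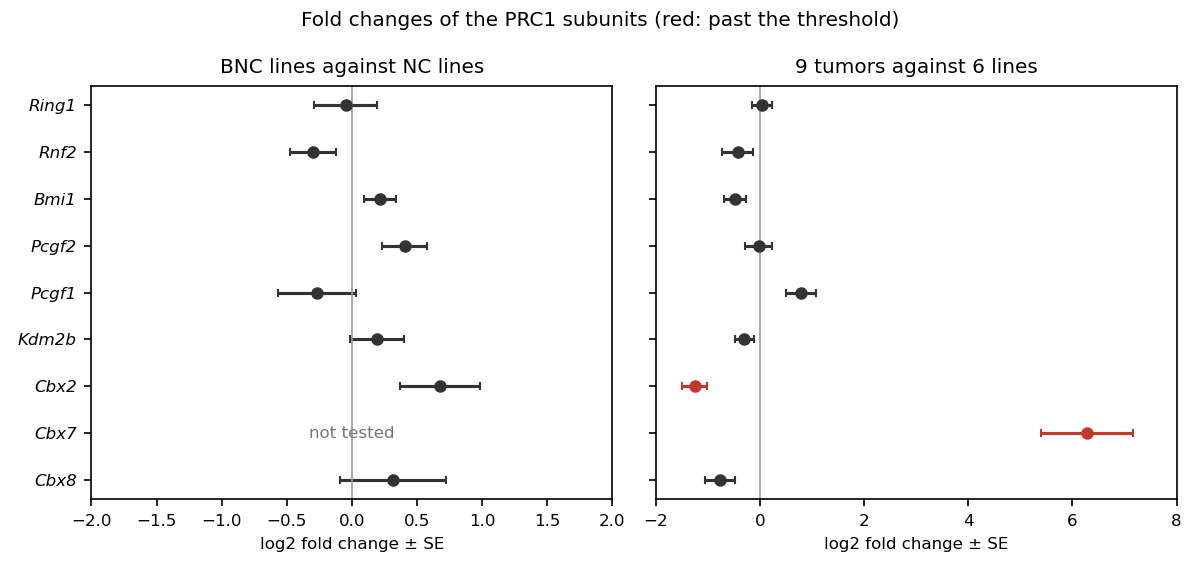
Log2 fold changes (horizontal axes) with standard errors of the 9 PRC1 genes in BNC against NC lines (left) and in 9 tumors against 6 lines (right), where red marks genes past the threshold. Only Cbx7 (6.28) and Cbx2 (-1.26) are red, both in the tumor comparison, and Cbx7 was not tested between the line groups.

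The levels of Cbx2, Cbx7, and Cbx8 were set side by side per kilobase, as shares of their sum. In lines Cbx7 made up at most 3.05% (median 0.610%), and in tumors it made up 18.9% to 79.3% (median 53.5%), without overlap. The share of Cbx2 was 31.2% to 62.7% in lines and 7.43% to 33.9% in tumors, where T22 alone was above the lowest lines, JB84 and JB93. Cbx8 took 34.2% to 68.6% in lines and 10.9% to 55.7% in tumors, and overlapped. Cbx7 was the largest of the 3 in 6 tumors (B1, B2, B13, B19, B28, and B45) and Cbx8 in the other 3 tumors, while Cbx8 was the largest in 4 lines and Cbx2 in JB97 and JB87. The ratio of Cbx7 to Cbx2 per kilobase was at most 0.0486 in the lines and 0.747 to 9.20 in the tumors. In GRCm38, Cbx2 (11:119022962-119031270) and Cbx8 (11:119036305-119040969) are neighbours on chromosome 11, and Cbx7 (15:79915807-79971119) lies on chromosome 15. Cbx7 shares 100 exon bases with Apobec3 on the opposite strand, so a part of its reads is uncertain.

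**Figure D3:**
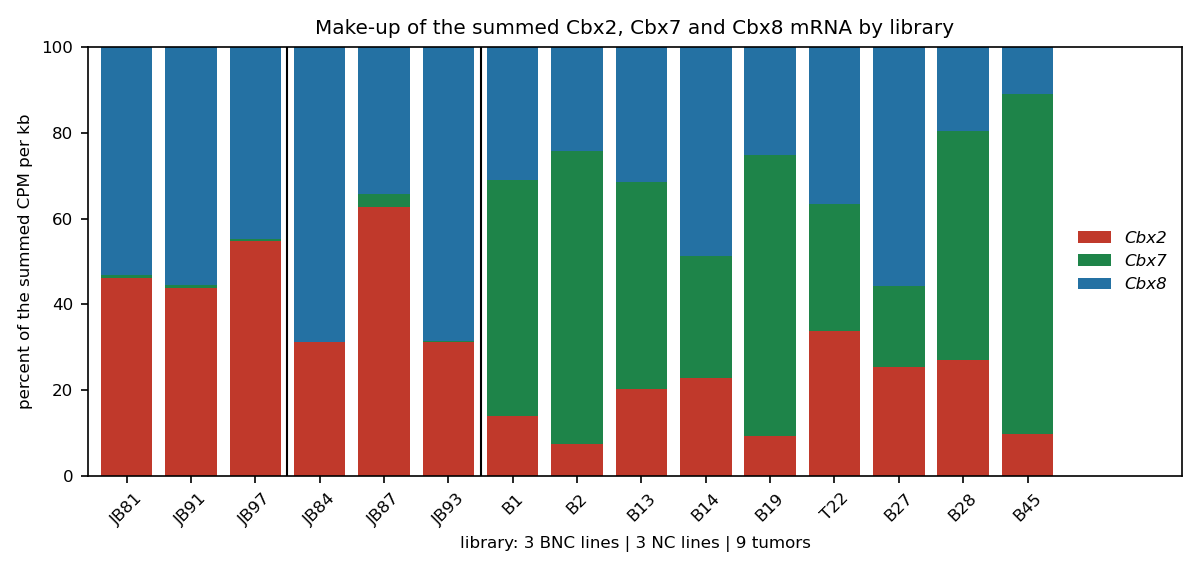
Shares of Cbx2, Cbx7, and Cbx8 in their summed CPM per kilobase (vertical axis, percent) in each library, with vertical lines between 3 BNC lines, 3 NC lines, and 9 tumors. The green segment of Cbx7 is at most 3.05% in the lines and runs from 18.9% in B27 to 79.3% in B45.

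Promoter sequences are shown for Cbx7 and Cbx8, chromobox members with opposite directions in tumors, and for Bmi1 and Pcgf2, the paralogs without overlap between BNC and NC lines. They are the bases before the RefSeq start site in GRCm38.p6, taken from windows of 250 bases. Bases that the GENCODE M21 annotation places in an exon (122 for Cbx7 and 56 for Cbx8) are left out. The stretches of Cbx7 and Pcgf2 lie inside the annotated genes, which on the minus strand begin at 15:79971119 and 11:97700497. Both thus precede internal starts, and the bases before the outermost start of these genes are not shown. Capitals mark the E-box CACGTG, the core site of MYC/MAX-type factors, searched on both strands, on which it reads the same. The stretches are, in order, 15:79932769-79932896 (minus strand), 11:119040970-119041163 (minus strand), 2:18676768-18677017 (plus strand), and 11:97699649-97699898 (minus strand), each written 5′ to 3′.
Cbx7: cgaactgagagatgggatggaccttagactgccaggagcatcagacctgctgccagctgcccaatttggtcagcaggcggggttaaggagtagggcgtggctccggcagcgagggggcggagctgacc
Cbx8: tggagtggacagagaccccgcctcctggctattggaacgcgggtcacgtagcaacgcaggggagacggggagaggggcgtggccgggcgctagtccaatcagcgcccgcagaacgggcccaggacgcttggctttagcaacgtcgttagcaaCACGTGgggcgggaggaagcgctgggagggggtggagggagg
Bmi1: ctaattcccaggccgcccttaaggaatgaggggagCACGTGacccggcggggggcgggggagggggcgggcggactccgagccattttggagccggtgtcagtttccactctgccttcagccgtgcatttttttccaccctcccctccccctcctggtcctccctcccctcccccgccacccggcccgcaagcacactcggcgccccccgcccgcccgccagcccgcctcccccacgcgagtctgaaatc
Pcgf2: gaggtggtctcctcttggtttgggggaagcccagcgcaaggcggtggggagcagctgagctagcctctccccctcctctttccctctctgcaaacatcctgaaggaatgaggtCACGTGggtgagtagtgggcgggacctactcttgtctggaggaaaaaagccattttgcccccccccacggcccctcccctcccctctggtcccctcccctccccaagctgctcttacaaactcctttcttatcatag
RefSeq windows were matched for 7 of the 9 genes (10 windows, of which 4 are starts of Kdm2b, and none for Cbx2 and Pcgf1). The E-box was found once in the 250-base window of Cbx8, Bmi1, and Pcgf2, beginning 98, 215, and 137 bases before the start, and in none of the windows of Cbx7, Ring1, Rnf2, and Kdm2b. Of all 32851 windows of this length 6.0% held it. The GC box CCGCCC or its reverse complement was in 9 of the 10 windows, all but 1 of Kdm2b, and in 32.7% of all windows. Windows of the 7 genes held between 5 CpG (the internal start of Pcgf2) and 38 CpG (a start of Kdm2b, also inside its gene). The median over all windows was 6.0. Letters that match are a description of the sequence and do not show binding.

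Per kilobase the order of the 9 genes in the lines was Bmi1 (median 21.7 CPM per kilobase), Rnf2 (13.3), Ring1 (6.78), Pcgf2 (6.36), Cbx8 (4.09), Cbx2 (3.41), Pcgf1 (3.0), Kdm2b (2.62), and Cbx7 (0.0473). Bmi1 was above Rnf2 in all 6 lines, Rnf2 above Ring1, Pcgf2 above Cbx8, and Kdm2b above Cbx7. Ring1 and Pcgf2 could not be ordered, each being the higher in 3 lines, nor could Cbx8 and Cbx2 (4 of 6 lines), Cbx2 and Pcgf1 (4 of 6), or Pcgf1 and Kdm2b (3 of 6). In the tumors the order was Bmi1 (14), Rnf2 (8.26), Ring1 (6.97), Pcgf2 (5.70), Pcgf1 (4.65), Cbx7 (3.23), Kdm2b (2.02), Cbx8 (1.95), and Cbx2 (1.25). Cbx7 stood at rank 9 in lines and at rank 6 in tumors, and Cbx2 at rank 6 in lines and rank 9 in tumors. With the length of the longest transcript in place of all exons, Cbx7 was at rank 9 and 7 and Cbx2 at rank 8 and 9, and in the NC lines alone Cbx2 was at rank 8 with either length. In tumors Bmi1 was above Rnf2 in all 9, while neighbours from Pcgf2 to Cbx8 changed places in at least 3 of 9.

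Markers of other cells moved with the tumor comparison. The 4 leukocyte markers summed to at most 0.695 CPM in any line and to 352 to 1379 CPM in the tumors, with Laptm5 and Coro1a the most abundant, and Cd52 was at 0 in all 6 lines. Macrophage markers, led by Lyz2, summed to at most 45 CPM in lines and at least 1115 CPM in tumors. The 6 muscle markers, led by Acta1 and Ckm, reached 32420, 32850, 33880, and 6832 CPM in B1, B19, B45, and B13 and at most 72.0 CPM in lines. The 4 lung epithelial markers, led by Scgb1a1 and Sftpc, reached 44630 CPM in B2 and at most 76.6 CPM in any other library. Past the threshold upward were 4 of 4 leukocyte, 6 of 6 macrophage, 6 of 6 T cell, 4 of 4 B cell, 4 of 5 endothelial, 4 of 6 fibroblast (Col3a1 among them, Col1a2 not), 5 of 6 muscle, 1 of 2 tested lung epithelial, and 2 of 8 tested mesothelial markers, and none downward. In the lines alone 0 of 4 leukocyte, 0 of 4 B cell, 1 of 6 T cell, 4 of 6 macrophage, 2 of 5 endothelial, 5 of 6 fibroblast, 2 of 6 muscle, and 0 of 4 lung epithelial markers passed the filter on low counts. Apart from the lung epithelial markers Sftpb and Nkx2-1, which were not tested, the others in these lists (Lum among the fibroblast markers) were tested only through the tumors, where they are high, so that these counts are a description. The 3 tumors highest in Cbx7, B45, B2, and B19, also carried high muscle or lung markers. B1 and B13, with muscle sums of 32420 and 6832 CPM, had 22.3 and 19.5 CPM of Cbx7. In B14, B27, T22, and B28, muscle markers summed to 123 to 1959 CPM. These 4 tumors had 10.0, 8.63, 7.61, and 20.9 CPM of Cbx7, all above every line. They also carried markers of other cells, with leukocyte sums of 1061, 1379, 374, and 352 CPM in the same order.

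The share of counts on mitochondrial genes was 1.34% to 1.403% in the lines and 1.51% to 17.3% in the tumors, highest in B1 (17.3%), B19 (9.36%), B2 (5.96%), and B45 (5.19%). Its part in the results was not tested. Without B1, B2, B13, B19, and B45 the log2 fold change of Cbx7 was 4.97, a description as before. Whether other cells contribute the Cbx7 reads was not tested. In bulk samples fewer cells of a type and less RNA per cell cannot be told apart.

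Markers of dividing cells were higher in lines than in tumors, as was Cbx2. The 12 cell division genes, led by Mki67 and Top2a, summed to 3283, 3265, and 3115 CPM in JB81, JB91, and JB97, to 955, 3133, and 938 CPM in JB84, JB87, and JB93, and to 75.2 to 1156 CPM in the tumors. The 4 lines with a sum of at least 3115 CPM were the 4 with Cbx2 at 14.4 CPM or more, and JB84 and JB93, with the lower sums, had Cbx2 under 8 CPM. In tumors against lines 10 of the 12 cell division genes passed the threshold downward (median log2 fold change -2.43), and 0 of 12 passed between BNC and NC lines (median 0.92, 0 with an unadjusted p under 0.05 by edgeR, and 0 calls by DESeq2). Over all genes 11.5% passed downward in tumors, and between the line groups 1.10% passed and 35.6% had an unadjusted p under 0.05. DESeq2 called 2023 of 20424 genes between the line groups. Among the tumors the sums were 75.2 CPM in B45, 188 in B2, 207 in B1, 301 in B19, and 359 in B13. They were 481 CPM in B14, 486 in B27, 771 in B28, and 1156 in T22. Cbx2 in the same order was at 6.81, 3.68, 3.71, 3.41, 5.33, 5.31, 7.58, 6.93, and 5.72 CPM. B2, B1, and B19 were the lowest in Cbx2, while B45, with the lowest sum, was not. The part of the cell division genes in the difference of Cbx2 was not tested.

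**Figure D4:**
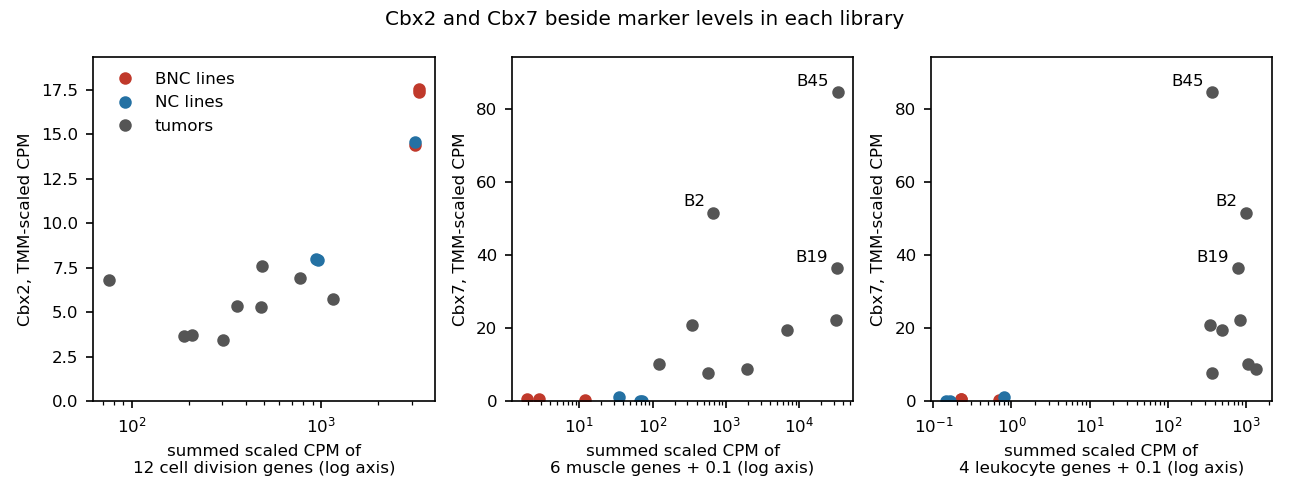
Cbx2 beside the summed scaled CPM of 12 cell division genes (left) and Cbx7 beside those of 6 muscle genes (centre) and 4 leukocyte genes (right), 1 point per library, with log horizontal axes. JB84 and JB93 lie together at the lower Cbx2 level of the lines, and B45, B2, and B19 are the tumors highest in Cbx7.

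Within the 9 tumors, some of the genes varied together, which is described over 9 tumors that differ in depth and cell mixture. Rnf2 and Pcgf1 had a Pearson r of 0.92 (Spearman rho 0.83), Pcgf2 and Pcgf1 0.82 (rho 0.82), and Ring1 and Rnf2 -0.85 (rho -0.57). Without T22 and B28, the 2 tumors farthest from the median of Rnf2 and of Ring1, r was 0.54 for Rnf2 with Pcgf1 and -0.17 for Ring1 with Rnf2, so that the second relation rested on those tumors. Ring1 and Pcgf1 had r of -0.81 (rho -0.65), and -0.12 without the same 2 tumors. For Pcgf2 with Pcgf1, r was 0.63 without the 2 farthest there, B19 and B28. Cbx7 had r of -0.32 with Cbx2 (0.04 without B19 and B2) and -0.13 with Cbx8 (-0.30 without B45 and T22).

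Among 11874 genes, those most like each PRC1 gene over the 9 tumors, by Pearson r of log2 CPM, were Setd6 (0.94) and Eif3j2 (0.93) for Ring1, and Msx1 (0.98) and Fut4 (0.98) for Rnf2. For Bmi1 they were Zfp260 (0.92) and Dram2 (0.91), for Pcgf2 Nlgn2 (0.97) and Magi1 (0.94), and for Pcgf1 5430416N02Rik (0.98) and Armcx1 (0.98). For Cbx2 they were the PRC2 gene Jarid2 (0.93) and Abcc1 (0.93), for Cbx7 Bach2 (0.98) and the catalase gene Cat (0.97), for Cbx8 Pdgfb (0.99) and Alg1 (0.97), and for Kdm2b Zfp395 (0.97) and Vps11 (0.97). With 9 points and so many genes, values of this size are a ranking only.

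The 32 other PRC1 genes gave 0 calls between BNC and NC lines by edgeR, where 1.10% of all genes were called. Their median log2 fold change was -0.08. Of the 32, 8 had an unadjusted p under 0.05 by edgeR (35.6% of all genes did), and DESeq2 called 2 (2023 of all 20424 genes). By the smallest p the first were Scmh1, a Polycomb SAM-domain protein, at 46.1, 51.4, and 48.5 CPM in JB81, JB91, and JB97 and 29.9, 22.7, and 32.2 CPM in JB84, JB87, and JB93 (log2 fold change 0.76 ± 0.17 SE, edgeR adjusted p = 0.041), and Tfdp1, the E2F partner of the Pcgf6 complex, with a log2 fold change of 1.03 (± 0.28 SE, edgeR adjusted p = 0.059). Scmh1 was the only one of the 32 with an adjusted p under 0.05, where 14.2% of all genes had one. Auts2, of the Pcgf3 and Pcgf5 complexes and picked here after its values were seen, had 27.3, 29.1, and 28.7 CPM in the BNC lines and 0.252, 4.25, and 0.136 CPM in the NC lines. Its adjusted p was 0.069 (log2 fold change 4.23, standard error 1.24, edgeR), and the groups did not overlap.

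In tumors against lines 8 of the 32 fell past the threshold and 0 rose by edgeR, where 11.5% of all genes fell and 28.2% rose, with a median of -0.54. The count depended on the method, with 3 lower and 0 higher by DESeq2, 1 lower and 1 higher with at least 10 counts in every library, and 3 lower without B1, B2, B13, B19, and B45. Among the 8 PRC1 genes called by edgeR, the 6 with the largest change were Tfdp1 (log2 fold change -2.26), the BCL6 corepressor Bcor (-1.23), the MAX partner Mga (-1.12), Wdr5 (-1.07), the histone deacetylase Hdac2 (-1.05), and the casein kinase subunit Csnk2a2 (-1.04). Bcor belongs to the complex of Pcgf1 and Kdm2b, and Tfdp1 and Mga to that of Pcgf6. Of the core PRC2 genes, Ezh2, the methyltransferase, fell by 1.98 on the log2 scale in tumors (± 0.27 SE, edgeR adjusted p = 3.0e-05), Suz12 by 1.72 (± 0.21 SE, edgeR adjusted p = 1.3e-05), and Eed had -0.74 (edgeR adjusted p = 0.0038), short of 2-fold. Between BNC and NC lines Ezh2 had 143, 135, and 156 CPM against 61.8, 95.1, and 58.6 CPM, a log2 fold change of 0.99 (± 0.22 SE, edgeR adjusted p = 0.037) that did not reach the threshold. Of 11 PRC2 genes 3 rose and 2 fell past the threshold in tumors and 0 were called between the line groups (2 with an unadjusted p under 0.05 by edgeR, and 1 call by DESeq2). Of the genes for H2A deubiquitination, 3 of 14 fell and 0 rose in tumors, and 0 of the 13 tested were called between the line groups (7 with an unadjusted p under 0.05 by edgeR, and 0 calls by DESeq2). Beside both lists, 1.10% of all genes were called between the line groups by edgeR and 35.6% had an unadjusted p under 0.05. DESeq2 called 2023 of 20424 genes there.

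DNA of 14 tumors was described at the same loci, as another readout. The labels list both BNC and NC tumors among the 14, again without tying a genotype to a column. The values below therefore pool both genotypes, and BNC and NC tumors were not compared in DNA. The 14 tumors carry 13 animal numbers, B20 and B21 being from 1 mouse. Values are log2 ratios against a normal tail in bins of 20000 bases, after subtraction of each tumor's median over its autosomal bins. Of the tumors, 5 share a name with an RNA column. The median over the 14 tumors was between -0.18 at Cbx8 and 0.01 at Bmi1. The lowest value of any tumor at any of the 9 genes was -0.37 (Cbx8 in B16) and the highest 0.21 (Rnf2 in B5). No tumor reached 0.4 in size at any of these genes. At Cbx2 and Cbx8 the medians over the gene were -0.16 and -0.18, and over the bins within 500 kb -0.04 at both, where 1 and 2 bins cover the genes themselves. Ring1 on chromosome 17 lay on a chromosome with a median of 0.16 in B25 and 0.11 in B31. At Rnf2 the tumor B28, highest in Rnf2 RNA, had a DNA value of -0.02, and B19, with 33.7 CPM, had 0.11. At Cbx7 the tumors B2, B19, and B28 had -0.13, -0.16, and -0.01.

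**Figure D5:**
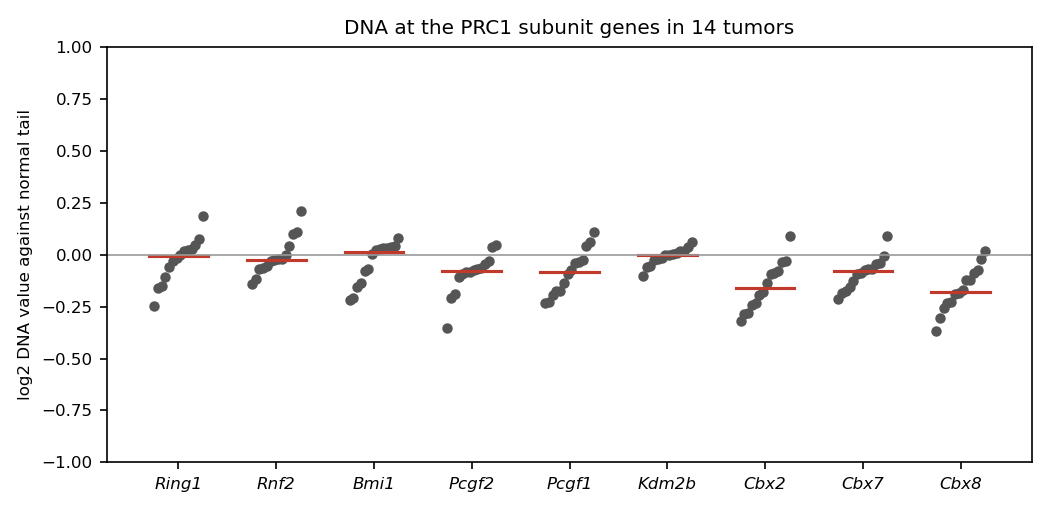
Mean log2 DNA value of the bins over each of the 9 PRC1 genes (vertical axis, against normal tail) in 14 tumors. Each tumor's autosomal median was subtracted, and each gene has 1 point per tumor and a bar at the median. All points lie between -0.37 and 0.21.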

How the data were processed

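The authors deposited RNA sequencing data as counts per Ensembl gene. Poly-A libraries had been read as 65-base single ends, mapped to mm10 with TopHat 2.0.12, and counted with HTSeq-count, after reads of low mapping quality were dropped. The strand setting is not given in the sources used here. DNA values were deposited as log2 ratios of 20-kb bins, treated as a score because 9440 entries held a placeholder, which was set to missing. The median over the autosomal bins of each tumor was then subtracted. The chromatin profiles were not analysed here.

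Columns were assigned by line name. The members and lists were chosen with earlier results of these data known. Counts were tested in R 4.3.3 with edgeR 4.0.16 (TMM, filterByExpr with a minimum count of 10, glmQLFit and glmQLFTest, Benjamini-Hochberg adjustment over all genes tested), on the 6 lines, or on all 15 libraries for tumors against the mean of both line groups. The threshold of adjusted p under 0.01 and 2-fold is that of the study. Scripts were tested on simulated counts. Symbols matched 98.5% of identifiers. DESeq2 1.42.0, other scalings, filters, and designs, and leaving out each library were alternatives. Named genes were the members, the targeted genes, other PRC1 genes (those called, up to 6 by size, or the 2 with the smallest p), Ezh2, Eed, and Suz12, the 2 most abundant genes of markers that moved, and for each member the 2 genes most like it.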

Additional observations from a re-analysis of the deposited data

Results flagged for a closer look

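In the 9 tumors the value of Pcgf2 in B28, 45.1 CPM, stood apart from the rest, since its gap to the next tumor was 0.61 of the whole range (Dixon's test at the 95% level). One of 9 such tests, 1 for each PRC1 gene over the tumors, was past the critical value. Chance gives about 1 in 20 for each test alone and more for any of the 9, so the flag is a description. B28 was also the highest tumor in Rnf2, Pcgf1, Bmi1, and Kdm2b.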

How the results depend on the processing

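Cbx2 kept its direction and its call in tumors against lines under 21 of 22 alternatives. Cbx7, tested only through the tumors, had log2 fold changes of 4.97 to 7.59 under the 21 alternatives that could be fitted, a description of the same reads, and at 10 counts in every library it was filtered out. Between BNC and NC lines 0 members were called under each alternative except leaving out each line, which gave 0 to 1 (Cbx2 without JB87). At an adjusted p under 0.05 without a fold 4 members passed in tumors, and 1 was called without B1, B2, B13, B19, and B45 (chosen after the data were seen), where Cbx2 was at -1.01. Pcgf1 passed at 1.01 with at least 10 counts in every library. For the other PRC1 genes the calls between line groups were 1 at an adjusted p under 0.05, 2 with DESeq2, and 0 to 4 with each line left out, and in tumors 19 at an adjusted p under 0.05, 3 with DESeq2, 2 with at least 10 counts in every library, 3 without the 5 tumors, and 6 to 9 with each library left out. Calls over all genes between the line groups moved from 136 to 2023 with DESeq2, to 416 with all 15 libraries in 1 model, to 83 with at least 10 counts in every library, to 1 with the opening number of the column name as covariate, to 0 with the close pairs summed, and to 0 to 2574 with each line left out (2574 without JB87). In tumors they were 6220 in the main fit, 7491 with DESeq2, 2795 with at least 10 counts in every library, and 3994 without the 5 tumors. Library size without TMM moved the median of all genes by -0.14 between the line groups, and no tested member changed direction there.

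Ring1 and Pcgf2, near 0, changed sign. Ring1 was 0.10 in BNC against NC lines with the replicate block by the numbers given, -0.051 with the block when JB97 is taken as number 3, and -0.18 to 0.12 with each line left out. In tumors Ring1 was -0.10 by library size, -0.001 without a filter, -0.025 without B1 and B13, -0.25 without the 5 tumors, and -0.051 to 0.106 with each library left out. Pcgf2 in tumors was 0.048 with DESeq2, 0.20 with at least 10 counts in every library, 0.012 without B1 and B13, 0.25 without the 5 tumors, and -0.228 to 0.085 with each library left out. With the length of the longest transcript, 3 of 9 members kept their rank in lines and 5 of 9 in tumors. Of the 18 most alike genes 4 were also found over 15 libraries with group means taken out. The cause was not tested. Numbers shared by BNC and NC lines did not pair them (correlation of deviations 0.10 for JB81 with JB84 and -0.07 for JB91 with JB87). JB97 had 0.08 with JB87, whose number it shares as given, and -0.08 with JB93 when taken as number 3. Either replicate block called 0 members and 0 of all genes. Depth limits Cbx7 in lines, where 3 counts are 0.124 to 0.232 CPM, and B1, where they are 0.856 CPM. A fit of tumors with that number as a term could not be had.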
